A study of Solanum lycopersicum with 24 samples.

Results

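Heat stress transcription factors of classes B and C were measured as mRNA in tomato anthers (Solanum lycopersicum, the dwarf cultivar Micro-Tom). The 9 genes were chosen by identifier, as HsfB1 (Solyc02g090820.3), HsfB2a (Solyc03g026020.3), HsfB2b (Solyc08g080540.3), HsfB3a (Solyc04g016000.3), HsfB3b (Solyc10g079380.2), HsfB4a (Solyc04g078770.3), HsfB4b (Solyc11g064990.2), HsfB5 (Solyc02g078340.3) and HsfC1 (Solyc12g007070.2). All 9 were among the 35768 gene identifiers of the deposited tables, and 6 had enough reads to be tested. The names come from the list that chose the genes, since the tables give identifiers alone. The LTMH plants, moved at flowering into long-term mild heat, had 34 °C days, 28 °C nights and 68% relative humidity. The control plants, CT, remained at a day temperature of 25 °C, a night temperature of 19 °C and 50% relative humidity. Temperature and humidity changed together, so their parts in an LTMH to CT difference, called a heat effect below, cannot be told apart. Sampling fell on day 4 for tetrad anthers, day 6 for free microspore anthers and day 8 for polarized microspore anthers, with 4 libraries for each of the 6 stage-by-temperature groups and 6 pooled anthers per library. Stage and day of sampling changed together, so a difference of the heat effect between stages cannot be told apart from one between lengths of treatment. All groups are of 1 cultivar and share the light period of 12 hours, and anthers were taken about 5 hours into it.

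Heat stress factors bind a short repeated motif in the promoters of heat-responsive genes. Class A members carry an activating domain and switch those genes on. Class B and C members lack that activating motif, and most class B members carry a short repressor motif instead. In tomato, HsfB1 has been described both as a partner that strengthens activation by class A factors and as a repressor, and in Arabidopsis its counterpart and HsfB2b damp the heat response.

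Libraries held 15657765 to 22987661 reads. Of 8 identifiers listed as stamen, tapetum and pollen genes, 7 had a median above 30 FPKM (fragments scaled by gene length and library total) over the 24 libraries, and 4 listed for sepal, ovule, carpel and leaf had at most 1.42 FPKM in any library. Among the 7, those listed for tapetum averaged 93.1 and 684 FPKM in tetrad CT, but 0.867 and 35.2 FPKM in polarized microspore CT. In LTMH they averaged 56.5 and 651 FPKM in tetrad anthers, and 4.49 and 101 FPKM in polarized microspore anthers. At that last stage the more abundant of them was called higher in LTMH (log2 change 1.52, edgeR adjusted p = 0.0243). The part of tapetum content in the results was not tested. The eighth, listed as a late pollen gene, had a median of 0.172 FPKM. It stood apart in polarized microspore CT replicate 4 with 95.8 FPKM, against 0.192 to 3.94 FPKM in the other 3 CT libraries of that stage, while the LTMH libraries of that stage had 1.06 to 13.2 FPKM. This is also the library furthest along the developmental axis given next. Calls that rest on it are given with and without it, while group means and sums include it. The part of its pollen signal in these results was not tested. Whether a group's libraries were from different plants is not in the labels, and p-values therefore measure only the spread between these samples, which may be technical. On an axis from the mean of the CT tetrad libraries (0) to the mean of the CT polarized microspore libraries (1), LTMH tetrad libraries lay at 0.163 ± 0.0857, against a SD of 0.0622 around 0 in CT. LTMH polarized microspore libraries lay at 0.874 ± 0.0242, against a SD of 0.0735 around 1 in CT (SD, n = 4 each). Along this axis tetrad LTMH libraries all lay later than the tetrad CT libraries, and polarized microspore LTMH libraries lay earlier on average than those of CT. Free microspore libraries lay at 0.498 ± 0.182 in LTMH and 0.434 ± 0.183 in CT. The axis was built from the CT libraries at its ends, which can by itself draw other groups inward, and this was not tested. The part of this position in the heat results was not tested. In whole anthers, fewer cells of a type and less RNA per cell cannot be told apart.

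The family was dominated by 4 genes. HsfB1, HsfB2a, HsfB2b and HsfB3a together made up 87.2% to 97.0% of the summed FPKM of the 9 genes in every library. HsfB4a and HsfC1 lay at a few FPKM, and HsfB3b, HsfB4b and HsfB5 were close to the limit of detection. The sum of the 9 genes was 63.4 ± 13.6 FPKM in LTMH against 54.8 ± 8.64 FPKM in CT at the tetrad stage (SD, n = 4 each). At the free microspore stage it was 78.6 ± 5.86 FPKM in LTMH against 67.8 ± 6.26 FPKM in CT, and at the polarized microspore stage 92.7 ± 5.65 FPKM in LTMH against 74.7 ± 12.1 FPKM in CT. The libraries of both temperatures overlapped in this sum at each stage. HsfB1 held 29.7 ± 6.11% of the sum in LTMH and 27.5 ± 3.28% in CT at the tetrad stage. At the polarized microspore stage it held 48.6 ± 4.48% in LTMH and 43.7 ± 11.3% in CT. In polarized microspore CT, replicate 4 had a sum of 90.9 FPKM, against 62.0 to 75.5 FPKM in the other libraries. Its HsfB1 share was 60.3%, against 35.2% to 39.6% in the others.

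**Figure D1:**
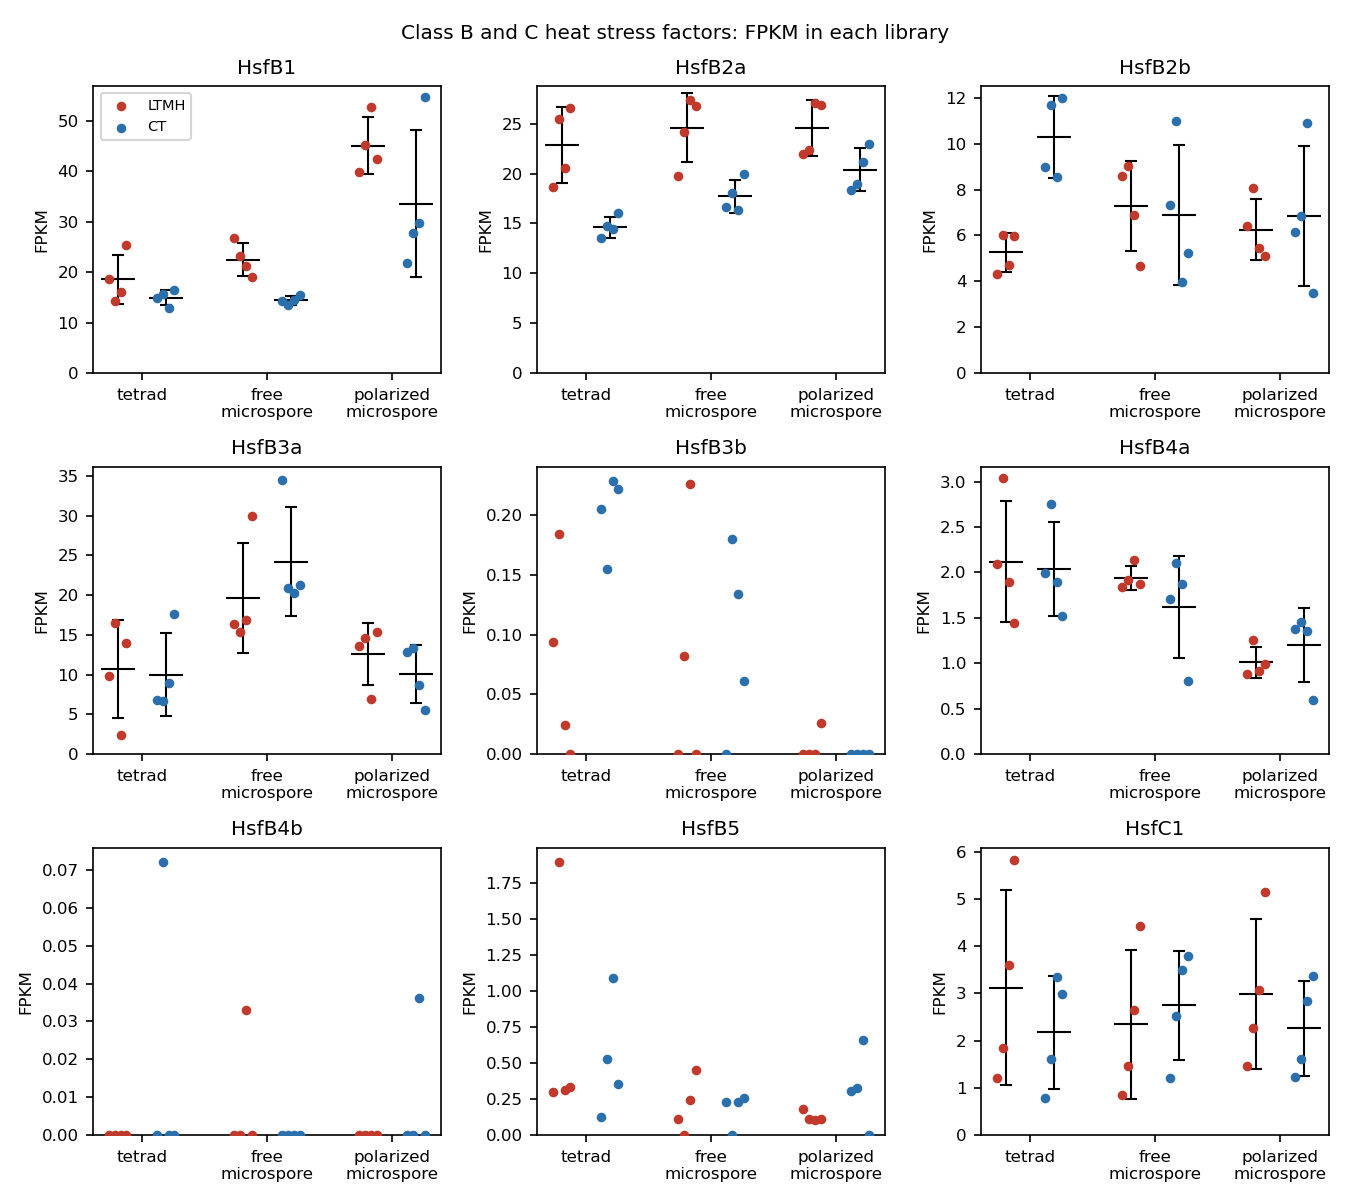
FPKM of each of the 9 genes in every library (points), by stage and with LTMH left of CT. Black lines give the mean and SD of 4 libraries for the 6 genes tested, and each panel has its own vertical axis from 0. HsfB1 is highest at the polarized microspore stage, and HsfB3a at the free microspore stage.

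**Figure D2:**
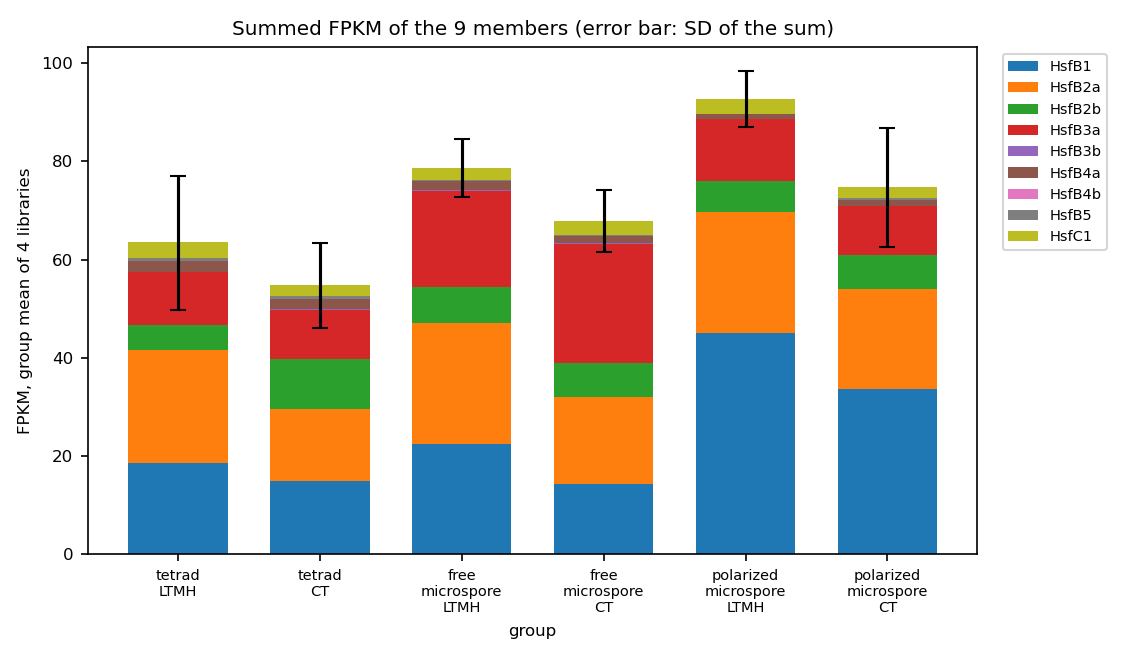
Group means of FPKM stacked over the 9 genes, with LTMH left of CT at each stage; the error bar is the SD of the summed FPKM over 4 libraries. HsfB1 holds 48.6% of the sum in LTMH and 43.7% in CT at the polarized microspore stage, with 60.3% in CT replicate 4.

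The heat comparisons gave the following calls among the 6 tested members. At the tetrad stage HsfB2a was higher and HsfB2b lower in LTMH than in CT, 2 of the 6 tested (edgeR quasi-likelihood test, adjusted p below 0.05), where 21.2% of all 21429 tested genes were called. Among free microspore libraries HsfB2a was higher, 1 of 6, where 8.82% of genes were called. At the polarized microspore stage 0 of 6 were called in edgeR, where 19.0% of genes were called. There 1 of 6, HsfB2a, had an unadjusted p below 0.05 (31.7% of all genes), and DESeq2 and limma called 0. Averaged over the 3 stages, HsfB1 and HsfB2a were higher in LTMH, 2 of 6, where 36.9% of genes were called. With 6 members, these counts are near the background shares.

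**Figure D3:**
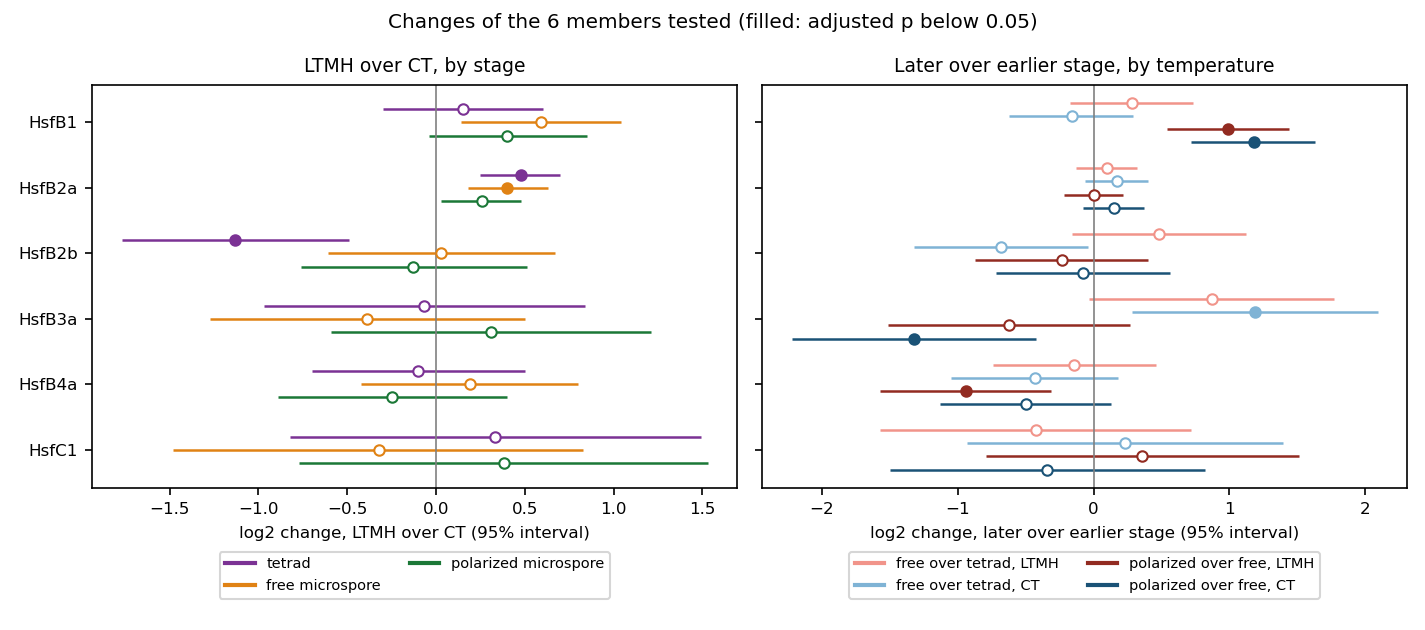
Log2 changes of the 6 tested genes with 95% intervals, as LTMH over CT at each stage (left panel) and as later over earlier stage at each temperature (right panel). Filled points have an adjusted p below 0.05. HsfB2a is filled at the tetrad and free microspore stages and HsfB2b at the tetrad stage in the left panel.

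HsfB2a, a class B factor whose Arabidopsis counterpart is needed for gametophyte development, was higher in LTMH at the tetrad and free microspore stages. Levels across libraries are given as CPM (library-scaled read counts, with TMM scaling), in the order of replicates 1 to 4. At the tetrad stage HsfB2a had 30.8, 41.0, 33.6 and 40.2 CPM in LTMH, against 24.7, 26.3, 26.6 and 27.0 CPM in CT. Every LTMH library lay above every CT library, as was so in one direction or the other for 23.2% of tested genes. The log2 change was 0.48 ± 0.11 SE, or 1.39-fold (edgeR adjusted p = 0.00391), and the call held in all 17 alternative fits of this comparison.

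At the free microspore stage HsfB2a had 32.6, 39.8, 43.4 and 39.8 CPM in LTMH, against 27.6, 30.3, 27.1 and 32.7 CPM in CT. Only LTMH replicate 1 and CT replicate 4 overlapped. The log2 change of 0.40 ± 0.11 SE was called (edgeR adjusted p = 0.0219). The call was lost without CT replicate 1 or 3 (log2 change 0.37 in both), without LTMH replicate 3 (0.35) or 4 (0.40), and when the 8 libraries of that stage were fitted by themselves (0.42, edgeR adjusted p = 0.0840).

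At the polarized microspore stage HsfB2a had 35.3, 35.9, 42.7 and 41.7 CPM in LTMH, against 29.3, 29.6, 33.3 and 38.0 CPM in CT. The groups overlapped, and the log2 change of 0.26 ± 0.11 SE was not called (edgeR adjusted p = 0.101). Without CT replicate 4 it was 0.34 and called (edgeR adjusted p = 0.0349). Averaged over stages, the heat effect was 0.38 ± 0.06 SE, or 1.30-fold (edgeR adjusted p = 7.75e-05), with 12 LTMH and 12 CT libraries. Leaving out 1 library gave log2 changes from 0.36 to 0.41, called each time. The heat effect did not differ detectably between stages, with a difference of -0.22 (95% interval -0.54 to 0.10) in polarized microspore against tetrad anthers. During CT development HsfB2a was 0.32 ± 0.11 SE higher on the log2 scale in polarized microspore than in tetrad anthers (edgeR adjusted p = 0.0146). Leaving out polarized microspore CT replicate 4 ended this call (0.23, edgeR adjusted p = 0.0702). In LTMH the same stages differed by 0.10 ± 0.11 SE (edgeR adjusted p = 0.469). The heat change at the tetrad stage and the CT stage difference share the tetrad CT libraries.

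HsfB2b, which in Arabidopsis acts as a repressor together with HsfB1, moved the other way at the tetrad stage. It had 6.71, 9.08, 7.22 and 8.47 CPM in LTMH, against 15.4, 19.7, 14.8 and 19.0 CPM in CT. The groups did not overlap. HsfB2b fell by 1.13 ± 0.31 SE on the log2 scale in LTMH (edgeR adjusted p = 0.0124). The call held in all alternatives at the 0.05 threshold, with log2 changes from -1.21 to -0.85.

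No such difference was found for HsfB2b at the later stages. At the free microspore stage it had 13.3, 13.9, 10.3 and 6.50 CPM in LTMH, against 11.4, 17.4, 6.25 and 8.06 CPM in CT. At the polarized microspore stage it had 9.71, 12.2, 8.04 and 7.43 CPM in LTMH, against 9.26, 10, 16.1 and 5.42 CPM in CT. LTMH and CT libraries overlapped at both stages. The log2 changes were 0.03 ± 0.30 SE (edgeR adjusted p = 0.970) and -0.13 ± 0.30 SE (edgeR adjusted p = 0.826). The free microspore CT libraries ran from 6.25 to 17.4 CPM. The highest, replicate 2, was the earliest of them along the developmental axis, at 0.236 against 0.336 to 0.642. In LTMH at that stage the latest library, replicate 1 at 0.767, had 13.3 CPM. The earliest LTMH library there, replicate 3 at 0.363, had 10.3 CPM. Replicate 2 had the highest HsfB2b level in 5 of the 6 groups.

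The heat effect on HsfB2b was more positive in free microspore than in tetrad anthers by 1.16 on the log2 scale (95% interval 0.26 to 2.06), but this was not called over all genes (unadjusted p = 0.0136, edgeR adjusted p = 0.346). Between the polarized microspore and tetrad stages the difference was 1.01 (95% interval 0.10 to 1.91, unadjusted p = 0.0294, edgeR adjusted p = 0.178). A restriction of the HsfB2b response to the tetrad stage was therefore not shown. Averaged over stages, the log2 heat effect on HsfB2b was -0.41 ± 0.18 SE and not called (edgeR adjusted p = 0.0724), but was called without polarized microspore CT replicate 4 (-0.48, edgeR adjusted p = 0.0260) or free microspore CT replicate 3 (-0.47, edgeR adjusted p = 0.0339). Of the 6 tested members, 0 were called for a difference of the heat effect in any of the 3 pairs of stages, in edgeR, DESeq2 or limma. HsfB2b was the member with an unadjusted p below 0.05, in 2 of the 3 pairs. Over all genes edgeR called 0% for free microspore against tetrad anthers (10.3% at an unadjusted p below 0.05), 4.09% for polarized microspore against tetrad anthers (21.7%) and 0% for polarized against free microspore anthers (8.37%).

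In CT, HsfB2b had its highest mean at the tetrad stage. It fell by 0.76 ± 0.30 SE on the log2 scale in polarized microspore against tetrad anthers (edgeR adjusted p = 0.0339). The call was lost under upper-quartile scaling (log2 change -0.64), in limma on log2(FPKM + 1) (-0.60) and on log2(FPKM + 0.1) (-0.68), and without any of 5 of the 8 libraries compared. These were tetrad CT replicates 2 (-0.69) and 4 (-0.71) and polarized microspore CT replicates 1 (-0.71), 2 (-0.75) and 4 (-0.55). In LTMH the same stages differed by 0.25 ± 0.31 SE (edgeR adjusted p = 0.520). The LTMH tetrad libraries were the lowest of all groups on average (7.87 ± 1.10 CPM, SD, n = 4). In CT the log2 step of HsfB2b from tetrad to free microspore anthers was -0.68 and not called. Without free microspore CT replicate 2 it was called (-1.01, edgeR adjusted p = 0.0107). The HsfB2b heat change at the tetrad stage, its heat effect differences against that stage and its CT falls share the tetrad CT libraries.

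HsfB1 had its highest mean at the polarized microspore stage at both temperatures. Tetrad anthers had 24.7, 18.4, 21 and 30.6 CPM in LTMH, against 21.6, 22.5, 19.1 and 22.1 CPM in CT. Free microspore anthers had 35.3, 30.3, 27.0 and 22.5 CPM in LTMH, against 18.8, 18.1, 19.1 and 20.3 CPM in CT. Polarized microspore anthers had 51.3, 58.1, 66.4 and 52.7 CPM in LTMH, against 28.1, 34.8, 37.5 and 72.5 CPM in CT. All polarized microspore libraries but CT replicates 1 and 2 lay above every library of the earlier stages, and CT replicate 4 was the highest library of all 24.

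Between the free and the polarized microspore stage HsfB1 rose by 0.99 ± 0.21 SE on the log2 scale in LTMH (edgeR adjusted p = 0.00232) and by 1.18 ± 0.22 SE in CT (edgeR adjusted p = 0.000276), or 1.98-fold and 2.26-fold. The stages did not overlap at either temperature, as was so for 28.6% of tested genes in LTMH and 33.7% in CT. The step from the tetrad to the free microspore stage was 0.28 ± 0.21 SE in LTMH (edgeR adjusted p = 0.366) and -0.16 ± 0.22 SE in CT (edgeR adjusted p = 0.577). Over both steps HsfB1 was 1.27 ± 0.21 SE higher in LTMH (edgeR adjusted p = 5.63e-05) and 1.02 ± 0.22 SE higher in CT (edgeR adjusted p = 0.000340). Without polarized microspore CT replicate 4, which lay furthest along the developmental axis at 1.073 and had the 95.8 FPKM of the gene listed for late pollen, the CT values were 0.81 for the later step and 0.65 over both, and both were still called.

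The heat effect on HsfB1, on the log2 scale, was 0.15 ± 0.21 SE in tetrad (edgeR adjusted p = 0.658), 0.59 ± 0.21 SE in free microspore (edgeR adjusted p = 0.0894) and 0.40 ± 0.21 SE in polarized microspore anthers (edgeR adjusted p = 0.198). None of these was called. In free microspore anthers all 4 LTMH libraries lay above all CT libraries, as was so in one direction or the other for 12.9% of tested genes. In polarized microspore anthers, where 26.2% of tested genes had separate groups and HsfB1 had overlapping ones, 1 library changed the call. Without CT replicate 4 the change was 0.77 ± 0.16 SE and was called (edgeR adjusted p = 0.00165). Averaged over stages, HsfB1 was 0.38 ± 0.12 SE higher in LTMH, or 1.30-fold (edgeR adjusted p = 0.0191). Leaving out 1 library gave log2 changes from 0.34 to 0.51, called each time.

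HsfB3a peaked at the free microspore stage in CT. HsfB3a had, in tetrad anthers, 12.7, 21.1, 3.01 and 16.7 CPM in LTMH, against 9.87, 9.42, 13.1 and 23.6 CPM in CT. In free microspore anthers it had 21.4, 19.9, 21 and 35.2 CPM in LTMH, against 45.4, 27.9, 26.6 and 27.7 CPM in CT. In polarized microspore anthers it had 17.3, 18.6, 8.59 and 19.0 CPM in LTMH, against 16.4, 16.5, 10.9 and 7.27 CPM in CT. Single libraries stood well away from their group at several points, and LTMH and CT overlapped at every stage.

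In CT, HsfB3a rose by 1.19 ± 0.43 SE on the log2 scale between the tetrad and the free microspore stage, or 2.28-fold (edgeR adjusted p = 0.0335). It fell by 1.32 ± 0.43 SE at the next step (edgeR adjusted p = 0.0191). The groups did not overlap in either step, as for 32.5% of tested genes in the first and the 33.7% given above in the second. The rise was lost without any of 4 of the 8 libraries, which were tetrad CT replicates 1 (log2 change 1.05), 2 (1.04) and 3 (1.15) and free microspore CT replicate 1 (0.97). The fall was lost without free microspore CT replicate 1 (-1.10) and without polarized microspore CT replicates 3 (-1.25) or 4 (-1.13). In LTMH the same steps were 0.87 ± 0.43 SE (edgeR adjusted p = 0.154) and -0.62 ± 0.42 SE (edgeR adjusted p = 0.299), with the same signs. The heat effect was not called at any stage, and its 95% intervals reached from -0.97 to 0.84 at the tetrad stage, -1.27 to 0.50 at the free microspore stage and -0.59 to 1.21 at the polarized microspore stage.

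HsfB4a, whose Arabidopsis counterpart takes part in root cell fate, was expressed at a low level that declined with development. Its tetrad values were 2.28, 3.24, 2.06 and 1.44 CPM in LTMH, against 2.42, 3.28, 2.32 and 1.70 CPM in CT. Its free microspore values were 2.01, 2.09, 2.24 and 1.84 CPM in LTMH, against 1.88, 2.34, 2.07 and 0.874 CPM in CT. Its polarized microspore values were 0.941, 1.34, 0.949 and 1.03 CPM in LTMH, against 1.47, 1.51, 1.42 and 0.651 CPM in CT. Tetrad and polarized microspore libraries did not overlap at either temperature, as for 48.7% of tested genes in LTMH and 57.1% in CT.

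From the tetrad to the polarized microspore stage HsfB4a fell by 1.08 ± 0.30 SE on the log2 scale in LTMH (edgeR adjusted p = 0.00436). In CT it fell by 0.94 ± 0.30 SE (edgeR adjusted p = 0.00921). Leaving out 1 library gave log2 changes from -1.08 to -0.72 in CT. The CT call was kept without polarized microspore CT replicate 4. In LTMH the drop was called in the step from the free to the polarized microspore stage (log2 change -0.94 ± 0.30 SE, edgeR adjusted p = 0.0247), and in CT neither single step was called. That LTMH call was lost without free microspore LTMH replicate 2 (-0.93) or 3 (-0.90) or polarized microspore LTMH replicate 1 or 3 (-0.89 in both). The log2 heat effect was -0.10 ± 0.29 SE, 0.19 ± 0.29 SE and -0.25 ± 0.31 SE at the 3 stages in order of development, none of them called by edgeR, with 95% intervals of -0.70 to 0.50, -0.42 to 0.80 and -0.89 to 0.40.

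HsfC1, the single class C member of the list, varied several-fold among the libraries of every group. Tetrad anthers had 2.24, 3.34, 6.67 and 9.97 CPM in LTMH, against 1.61, 3.28, 7.02 and 5.70 CPM in CT. Free microspore anthers had 1.58, 2.71, 4.77 and 7.45 CPM in LTMH, against 2.28, 4.81, 6.59 and 7.06 CPM in CT. Polarized microspore anthers had 2.65, 4.13, 5.49 and 9.07 CPM in LTMH, against 2.25, 2.86, 5.05 and 6.29 CPM in CT. The highest library of a group exceeded the lowest by 2.79-fold to 4.72-fold. Replicate 1 was the lowest library in 6 of 6 groups, and replicate 4 the highest in 5 of 6.

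**Figure D4:**
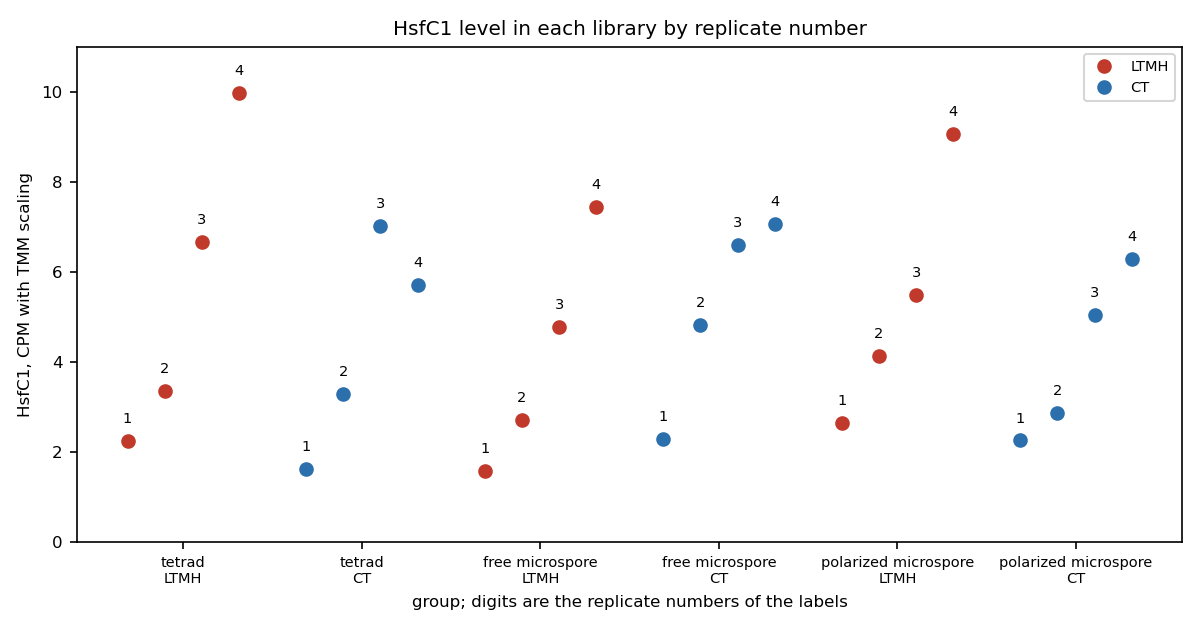
HsfC1 in CPM in each library, with the replicate number of the labels printed above each point and LTMH left of CT at each stage. Libraries numbered 1 lie between 1.58 and 2.65 CPM and libraries numbered 4 between 5.70 and 9.97 CPM, at every stage and both temperatures.

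With this spread, the log2 heat effect on HsfC1 was 0.33 ± 0.55 SE at the tetrad stage, -0.32 ± 0.55 SE at the free microspore stage and 0.38 ± 0.55 SE at the polarized microspore stage (edgeR adjusted p = 0.706, 0.781 and 0.694). The 95% intervals, such as -0.82 to 1.49 at the tetrad stage, come from the fit without the replicate number, and so include the spread between numbers just described. No stage step of HsfC1 was called at either temperature.

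The other 3 members had too few reads to be tested. HsfB3b had 65 reads over 24 libraries, at most 8 in any library. At the tetrad stage it had 4, 7, 1 and 0 reads in LTMH, against 7, 5, 8 and 8 reads in CT. The ratio of LTMH to CT, per TMM-scaled library total, was 0.331 (95% interval 0.153 to 0.672), an interval for counting error that leaves out the spread between libraries. Free microspore anthers had 0, 3, 8 and 0 reads in LTMH, against 0, 6, 5 and 2 reads in CT. By the polarized microspore stage it had 1 read in LTMH and 0 reads in CT, where a count of 0 over the group allows up to 0.0400 CPM. The 28 reads of tetrad CT lay 11.4-fold above that floor of 3 reads. With counting error in both groups, the ratio of polarized microspore CT to tetrad CT had an upper 95% limit of 0.115.

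HsfB5, which lacks the repressor motif of other class B members, had 72 reads in all. At the tetrad stage it had 26 reads in LTMH, of which replicate 2 held 17, and 17 reads in CT. At the polarized microspore stage it had 5 reads in LTMH and 11 in CT. HsfB4b had 4 reads in all and was at 0 in 21 of 24 libraries, so no level can be given for it beyond the floor of 0.0368 to 0.0489 CPM per group.

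Between stages, counts of called members were again read beside those of all genes. In CT, 1 of 6 was called between the tetrad and free microspore stages (40.7% of all genes), 2 of 6 between the free and polarized microspore stages (41.1%) and 4 of 6 over both steps (63.6%). In LTMH these counts were 0 of 6 (21.3% of all genes), 2 of 6 (26.0%) and 2 of 6 (52.9%). The 0 for the earlier LTMH step was from edgeR, and DESeq2, limma and an unadjusted p below 0.05 (35.0% of all genes) also gave 0. Groups did not overlap in that step for 0 of 6 members and 22.3% of tested genes. HsfB1 rose and HsfB4a fell from the tetrad to the polarized microspore stage at both temperatures.

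Identifiers listed as class A factors and as chaperones were taken as other genes of the pathway. These lists were entered from memory of the literature and could not be checked, since the tables do not annotate them, so every count and share from them carries that doubt. The same holds for the marker identifiers above. Of 15 identifiers listed as class A factors, 12 were tested. In LTMH 1 was higher and 0 lower at the tetrad stage, 0 and 0 at the free microspore stage, and 2 higher and 1 lower at the polarized microspore stage (edgeR, adjusted p below 0.05). Over all tested genes 8.23% were called higher and 12.9% lower at the tetrad stage, 4.21% and 4.61% at the free microspore stage, and 8.32% and 10.7% at the polarized microspore stage. The class A median log2 heat changes were -0.06, -0.04 and 0.22 at these stages, beside -0.01, -0.02 and 0.00 over all genes. At the free microspore stage 1 of the 12 had an unadjusted p below 0.05, beside 23.6% of all tested genes. Of 14 identifiers listed as heat-induced chaperones and a coactivator, 9 were tested, and 4 were higher and 1 lower at the tetrad stage, 2 higher and 0 lower at the free microspore stage, and 4 higher and 0 lower at the polarized microspore stage. Their median log2 heat changes were 0.51, 0.56 and 0.41. The identifier lower at the tetrad stage, listed as HSP101, had a log2 change of -1 there (edgeR adjusted p = 0.000549). It was also called lower averaged over stages (-0.57, edgeR adjusted p = 0.000169), where 6 others were called higher. For that average 16.7% of all tested genes were called higher and 20.2% lower. Of the 14, 13 were among the deposited identifiers. Those listed as HSP70, as the coactivator and as 1 of the class I small heat shock proteins had 0 reads in every library. In FPKM summed per library, the 9 class B and C genes made up 41.7 ± 3.73% in LTMH and 40.9 ± 1.62% in CT of the total with the 15 class A genes at the tetrad stage. At the polarized microspore stage this share was 50.6 ± 0.760% in LTMH libraries and 48.9 ± 3.04% in CT libraries (SD over 4 libraries).

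Likeness between members was measured as Pearson's r of log2 CPM over the 24 libraries, which share stages, temperatures and replicate numbers, and is a description. The members did not follow a common pattern. HsfB1 and HsfB4a ran opposite to each other (r = -0.74), as did HsfB2a and HsfB2b more weakly (r = -0.46), and HsfB1 and HsfB2a ran together (r = 0.52). HsfB3a and HsfC1 had no r beyond ± 0.37 with any other tested member. Among 17 other tested heat stress factors, HsfC1 was most like Solyc08g062960.3 of the class A list (r = 0.91). HsfB4a was most like Solyc09g065660.3 of that list (r = 0.76). Of all tested genes, those most like HsfB1, the member with the highest mean FPKM, were Solyc06g073110.3 (r = 0.954) and Solyc02g085870.3 (r = 0.938).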

How the data were processed

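The authors deposited raw read counts per gene and FPKM values for 24 libraries. TopHat2 2.0.12 and HTSeq 0.6.1 are the tools listed, per the submitters' processing notes; for the build and gene models, the answer is not given in the sources used here. Per the labels' protocols, libraries were made from poly-T selected mRNA, and neither strand marking nor stranded counting is stated, so overlapping genes on opposite strands and near-identical copies are uncertain. The deposited FPKM equal counts over library total and a constant per gene, to a relative error of 1.26e-07. That constant was derived from the same counts and FPKM, and was not checked against gene lengths. No reference sequence was used. The RefSeq table of SLM_r2.1 holds no Solyc identifiers, so 0 of 9 members could be looked up in it.

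The quasi-likelihood model of edgeR 4.0.16 (R 4.3.3) was fitted to the counts of 6 groups with TMM scaling, filterByExpr (minimum count 10) and robust quasi-likelihood dispersion with 18 residual degrees of freedom. Benjamini-Hochberg adjustment covered 21429 genes, and adjusted p-values below 0.05 were called. SEs derive from the F statistic. Alternatives used DESeq2 1.42.0 and limma 3.58.1. Developmental position projects log2 CPM (prior count 2) on 6094 genes called between CT tetrad and CT polarized microspore libraries whose log2 change was 1 or more in either direction. Scripts were tested on simulated data; the recovery required of them was lowered after 1 comparison fell just short of it. All 9 members are named, with the most alike genes by Pearson's r; members and lists were chosen with earlier results of these data known. Floors are 3 reads over a group and intervals are 95%; for ratios of reads both cover counting error only.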

Additional observations from a re-analysis of the deposited data

Results flagged for a closer look

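In 4 of 36 groups of 4 libraries, over the 6 tested members, the highest or lowest library lay far from the other 3 relative to the range of the group; chance flags about 1 in 20 such groups. HsfB3a had 35.2 CPM in free microspore LTMH replicate 4, against 19.9 to 21.4 CPM in the other 3. In free microspore CT it had 45.4 CPM in replicate 1, against 26.6 to 27.9 CPM. In polarized microspore LTMH it had 8.59 CPM in replicate 3, against 17.3 to 19.0 CPM. HsfB4a had 0.651 CPM in polarized microspore CT replicate 4, from 12 reads, against 1.42 to 1.51 CPM in the other 3.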

How the results depend on the processing

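The 16 called member results kept their direction in all 302 alternative fits and their call in 269. In the count of members called, most alternatives stayed within 1.5 times. An adjusted p below 0.01 left 1 member at the tetrad stage, 0 at the free microspore stage and 1 averaged over stages for heat, and 0, 1 and 2 for the CT steps from tetrad to free, free to polarized and tetrad to polarized microspore, and 1 from free to polarized microspore in LTMH. Fitting that stage's 8 libraries by themselves called 0 for free microspore heat. Leaving out 1 library gave 0 to 1 for free microspore heat, 0 to 2 for polarized microspore heat, 0 to 2, 1 to 3 and 2 to 4 for those CT steps and 1 to 2 for free to polarized microspore in LTMH. Over all genes, 52 counts moved beyond 1.5 times, 39 of them for differences of the heat effect, where DESeq2 called 80, 1723 and 102 genes and limma on log2(FPKM + 1) 7, 2312 and 18, against 0, 876 and 0 in edgeR (free microspore against tetrad, polarized microspore against tetrad, polarized against free microspore). For free microspore heat, its 8 libraries by themselves gave 506 genes against 1891 with all libraries. The causes were not tested. Without a filter HsfB3b was also called lower in 2 CT comparisons and HsfB5 in 1 LTMH comparison.

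Same-numbered libraries did not deviate together in every pair (4 pairs per comparison, correlations from -0.380 to 0.351), so the labels' numbers are not taken to pair them. With the replicate number as a block, 1 member (HsfB2a, edgeR adjusted p = 0.0335) was called for heat at the polarized microspore stage and 2 (HsfB2b and HsfB3a) for the CT step from tetrad to free microspore; HsfB2b was also called averaged over stages (log2 change -0.41, edgeR adjusted p = 0.0473). The SE of the stage-averaged heat effect on HsfC1 was then 0.10, against 0.32 without it, and the effect of 0.08 was not called (edgeR adjusted p = 0.579). Reads limit HsfB3b, HsfB4b and HsfB5, which were not tested.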

Other observations

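The share of the variance within groups that follows the replicate number was computed for each tested gene from log2 CPM, after HsfC1 had been seen to follow it. This share was 93.4% for HsfC1, against a median of 16.9% over all tested genes, and 1 of 21429 genes had a higher share. Solyc08g062960.3 of the class A list, the factor most like HsfC1, had 86.6%. Among the other members the share was 68.7% for HsfB4a, 56.1% for HsfB2a, 35.7% for HsfB2b, 27.0% for HsfB3a and 11.7% for HsfB1, and 3.97% of all genes exceeded 50%. HsfB4a had its highest library in replicate 2 and its lowest in replicate 4 in 5 of 6 groups each. HsfB2a had its lowest in replicate 1 in 5 of 6, and HsfB2b its highest in replicate 2 in 5 of 6. Pooled over the groups, total reads overlapped between the numbers, at 16694245 to 22987661 for number 1 and 16049773 to 18638171 for number 4. Each number includes every stage, so overlap in developmental position could not be otherwise. Number 4 lay at 0.290 against 0.103 for number 1 in tetrad LTMH, and at 0.068 against -0.046 in tetrad CT. These were 0.438 against 0.767 in free microspore LTMH and 0.642 against 0.336 in free microspore CT. In polarized microspore anthers they were 0.859 against 0.850 in LTMH and 1.073 against 1.019 in CT. The labels do not say what the replicate number stands for, and its part in these values was not tested.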
